A study of Homo sapiens with 6 samples.

Results

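The genes described here are 10 forkhead transcription factors, FOXS1, FOXF1, FOXC1, FOXC2, FOXO1, FOXO3, FOXO4, FOXP1, FOXK1 and FOXM1, chosen by name and read on every array probe that the platform annotation assigns to them. In all, 22 of the 47323 probes carried one of these names, and 9 of the 10 genes had a probe, out of 20046 gene symbols on the array. FOXC1 had no probe named here and has no value. The names were chosen with the differences between the groups already known, so those differences are given for the 10 genes as a description, with no p-value.

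The cells were Rh30, an established line from a human alveolar rhabdomyosarcoma, a childhood tumour with features of skeletal muscle, which carries the PAX3-FOXO1 fusion (FKHR is an older name of FOXO1). The 3 control samples received a scrambled control siRNA and the other 3 an siRNA against P/CAF, the lysine acetyltransferase encoded by KAT2B, and RNA of both groups was taken after 72 h. Both groups share the line and its fusion gene, so the comparison is of less KAT2B within fusion-positive cells of 1 line. Nothing in the labels states that the cells of each sample were cultured apart, so errors and p-values cover the spread of these samples alone, which could be technical.

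Forkhead proteins bind DNA through a winged-helix domain. FOXO1, FOXO3 and FOXO4 form the FOXO group, which AKT phosphorylates in cells that receive insulin or growth factor signals, so that the proteins leave the nucleus. Acetyltransferases, among them the closely related CBP and p300, also modify FOXO proteins. In the tumour, a translocation joins the DNA-binding part of PAX3 to the C-terminal activating part of FOXO1, and the fusion gene is transcribed from the PAX3 promoter. FOXM1 drives genes of the G2 and M phases of the cell cycle. In the mouse, Foxf1 is a Hedgehog-responsive gene of gut and lung mesenchyme, Foxc1 and Foxc2 act in the somites that give rise to skeletal muscle, and Foxk1 is found in muscle progenitor cells.

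The FOXO1 promoter is shown because the rearranged gene of this tumour takes its C-terminal activating part from FOXO1. That promoter itself serves the unrearranged copy. The FOXO4 promoter is shown because it had the only forkhead core among the promoters read. The RefSeq promoter table, of build GRCh38.p14, held 6 of the 10 genes (FOXP1, FOXC1, FOXO3, FOXK1, FOXO1 and FOXO4), each as 250 bases before to 50 bases after the transcription start. FOXS1, FOXF1, FOXC2 and FOXM1 are named only. The FOXO1 window lies on the minus strand at chr13:40666592-40666891, and the FOXO4 window on the plus strand at chrX:71095601-71095900. Capitals mark matches to the motifs searched other than the GC box.
FOXO1: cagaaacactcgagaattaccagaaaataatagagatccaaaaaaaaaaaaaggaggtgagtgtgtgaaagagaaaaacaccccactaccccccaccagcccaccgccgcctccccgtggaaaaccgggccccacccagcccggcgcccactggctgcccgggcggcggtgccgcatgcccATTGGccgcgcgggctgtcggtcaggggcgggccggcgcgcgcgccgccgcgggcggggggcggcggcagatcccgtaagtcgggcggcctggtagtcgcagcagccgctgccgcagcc
FOXO4: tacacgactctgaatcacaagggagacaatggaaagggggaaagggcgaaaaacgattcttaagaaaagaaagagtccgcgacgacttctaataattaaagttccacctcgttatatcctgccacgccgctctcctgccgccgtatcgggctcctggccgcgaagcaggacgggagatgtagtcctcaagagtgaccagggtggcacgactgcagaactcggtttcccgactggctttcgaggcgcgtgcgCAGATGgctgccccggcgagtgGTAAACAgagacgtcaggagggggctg

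In FOXO1 the capitals are a CCAAT box read on the opposite strand, at position -69 from the start. In FOXO4 they are an E-box (CANNTG) at position 2 after the start and the forkhead core TGTTTAC on the opposite strand at position 24. Both strands were searched, and E-box matches include those of the narrower E-box CAGCTG. The forkhead core was present in 1 of the 6 promoters and in 3.42% of all 35116 promoters of that length. The E-box was in 2 of the 6 (FOXK1 and FOXO4) and in 68.7% of all, and CCAAT in 2 (FOXC1 and FOXO1) and in 34.6% of all. The GC box GGGCGG was in 4 of the 6 and in 45.0% of all. The GLI-binding motif TGGGTGGTC (0.236% of all), CAGCTG (17.9%), the TATA box TATAAA (11.5%) and the cell cycle element TTTGAA (15.2%) were not in these windows. The matches are letters in a window, and no binding was measured here.

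Between 20891 and 21421 probes were detected per array, median signals lay between 79.1 and 89.7, and the correlation within groups was 0.981 to 0.994. Control array 3 had the lowest mean correlation with its group, 0.983. The siRNA target was lower in the treated cells: KAT2B measured 9.49 ± 0.36 in controls and 6.72 ± 0.29 after siP/CAF on the log2 scale (SD, n = 3 each; difference -2.77, SE 0.22, limma with Benjamini-Hochberg adjustment, adjusted p = 1.91e-04). Rhabdomyosarcoma markers were present, with 8 of 10 tested, MYOD1 and DES detected, and CHRNG and MYF6 detected on 0 arrays. All levels below are normalized log2 signals of 1 probe, and since probes differ in brightness no level is set against that of another gene. In bulk RNA, fewer cells of a kind and less RNA per cell cannot be told apart.

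FOXS1, a forkhead gene known in the mouse from developing sensory neurons, showed the widest gap of the 10 genes. Its 1 probe (ILMN_1811790) gave signals, as intensity before normalization, of 4481, 3361 and 3429 on the control arrays and 606, 669 and 671 on the siP/CAF arrays. After normalization the log2 values were 11.91, 11.90 and 11.69 against 9.13, 9.25 and 9.38. Each siP/CAF array was below every control array, and the spread within either group was a small part of the gap. The means were 11.83 ± 0.13 and 9.25 ± 0.13 (SD, n = 3 each), a log2 difference of -2.58 with an SE of 0.15 and a 95% interval of -2.92 to -2.24, or 5.98-fold lower. Among the 11806 genes tested, this difference ranked 2 from the lowest. Across the 15 alternative ways of processing, it lay between -2.72 and -2.47.

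FOXF1 was dim in these cells. The log2 values of its 1 probe (ILMN_1680973) were 6.83, 6.18 and 6.63 in controls and 5.59, 5.68 and 5.03 after siP/CAF. The groups did not overlap, and the probe was detected on 3 of 3 control arrays and 2 of 3 siP/CAF arrays. The means were 6.55 ± 0.33 and 5.43 ± 0.36 (SD, n = 3 each), a difference of -1.11 with an SE of 0.23 (rank 80 from the lowest). Its size moved with the background correction: it was -0.59 both without background correction and in the deposited series matrix, and -0.72 with an offset of 50. With each array left out in turn, the difference was between -1.29 and -0.91.

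FOXC2, a factor of paraxial mesoderm and lymphatic vessels in the mouse, was the 1 of the 9 genes whose difference was above 0. Its log2 values (ILMN_1705201) were 5.97, 6.08 and 6.17 in controls and 6.45, 6.57 and 6.44 after siP/CAF. The groups did not overlap, and the difference was 0.42 with an SE of 0.14. Without background correction it was 0.24. The other FOXC2 probe was detected on 1 control array and 0 siP/CAF arrays and was not tested.

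**Figure D1:**
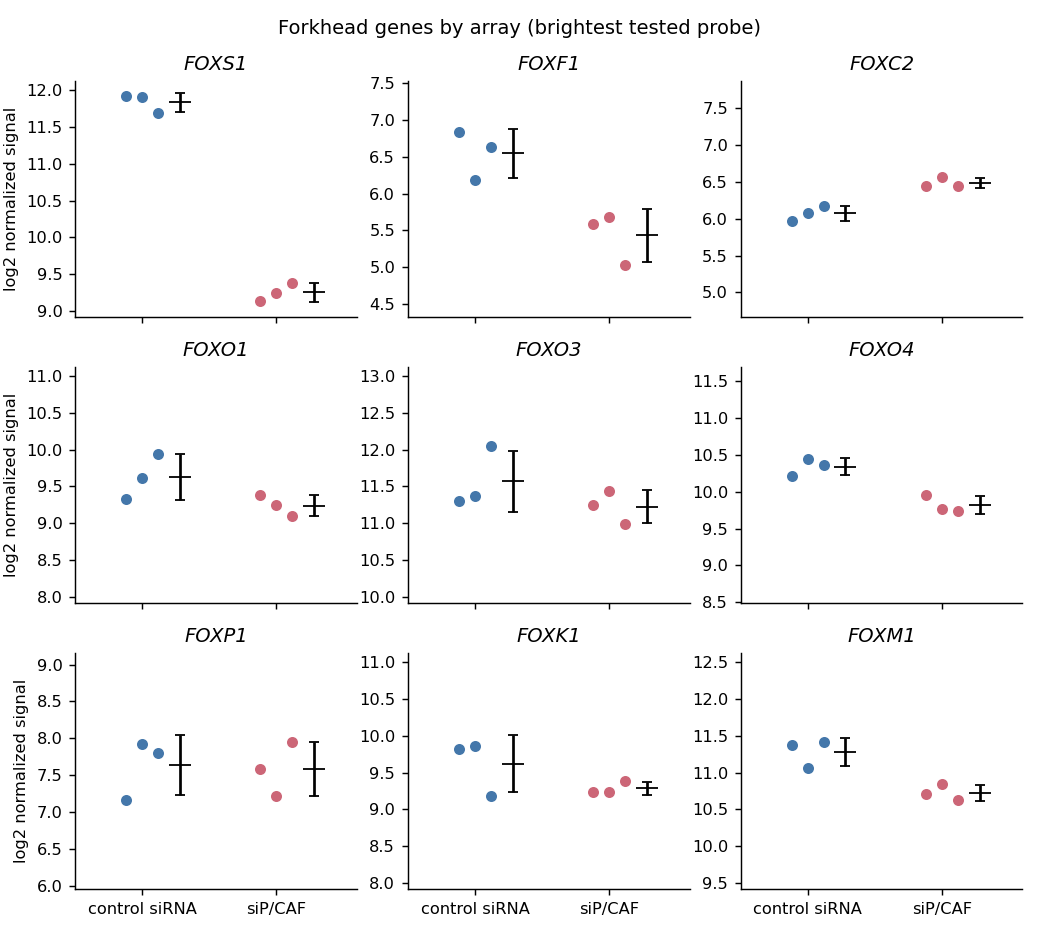
Normalized log2 signal (vertical axis, the same span of log2 units in every panel) of the brightest tested probe of each forkhead gene on the 3 control siRNA and 3 siP/CAF arrays; points are arrays, horizontal marks means and bars SD. The groups of FOXS1 lie at 11.83 and 9.25, those of FOXC2 are separated in the opposite direction, and the control points of FOXO1, FOXO3, FOXP1 and FOXK1 overlap with the siP/CAF points.

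FOXO1, the fusion partner in this tumour, was detected on all 6 arrays. The log2 values of its 1 probe (ILMN_1738816, from NM_002015) were 9.33, 9.61 and 9.95 in controls and 9.38, 9.25 and 9.09 after siP/CAF. The groups overlapped, since control 1 was below siP/CAF 1, and control 3 was the highest. The means were 9.63 ± 0.31 and 9.24 ± 0.14 (SD, n = 3 each), a difference of -0.39 with an SE of 0.19 and a 95% interval of -0.80 to 0.03. Without control 3 it was -0.23. The probe's sequence was not used here, so whether it also reads the PAX3-FOXO1 transcript was not determined, and its level may be of the fusion, the unrearranged copy or both.

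FOXO3, the FOXO factor that also drives autophagy genes, had 4 probes. The brightest (ILMN_1681703) measured 11.30, 11.36 and 12.04 in controls and 11.24, 11.44 and 10.99 after siP/CAF. The groups overlapped, control 3 was again the highest, and the difference of -0.34 (SE 0.22) was -0.11 without it. The next probe (ILMN_1844692) differed by -0.08 with an SE of 0.16. A dim probe (ILMN_1712515) had 5.43, 5.38 and 5.48 in controls and 4.96, 4.81 and 4.55 after siP/CAF, was detected on 3 control arrays and 0 siP/CAF arrays, and was at least 1.21-fold lower. It passed the filter through the control arrays alone, and its siP/CAF values were not above background. The fourth was detected on 0 arrays. Whether these probes also read the FOXO3B copy was not determined.

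FOXO4, an X-linked FOXO factor, measured 10.21, 10.45 and 10.36 in controls and 9.96, 9.76 and 9.73 after siP/CAF on its 1 probe. Every siP/CAF array was below every control array. The difference was -0.52 with an SE of 0.15 (rank 808 from the lowest) and was between -0.59 and -0.43 under the alternatives. It was -0.50 without background correction, -0.51 with an offset of 50 and -0.50 in the deposited series matrix.

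FOXM1, the mitotic forkhead factor, was read by 2 probes that ran the same way. The brighter (ILMN_2344971) measured 11.37, 11.07 and 11.41 in controls and 10.70, 10.84 and 10.63 after siP/CAF, a difference of -0.56 with an SE of 0.16. The other (ILMN_1716400) measured 10.22, 9.85 and 10.18 against 9.61, 9.80 and 9.46, a difference of -0.46 with an SE of 0.17. On both probes the groups did not overlap, though control 2 came within a small margin of siP/CAF 2 on the dimmer probe. The difference of the brighter probe was between -0.66 and -0.49 when an array was left out.

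FOXP1 encodes a transcriptional repressor. Its brightest probe (ILMN_1682495) measured 7.17, 7.93 and 7.80 in controls and 7.58, 7.22 and 7.94 after siP/CAF, a difference of -0.05 with an SE of 0.24. The groups lay on top of each other. The other 3 tested FOXP1 probes differed by -0.19, -0.18 and 0.25, and the fifth was detected on 0 arrays. The sign of the FOXP1 value turned under array weights (0.05) and without control 2, control 3 or siP/CAF 2 (0.10, 0.04 and 0.13).

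FOXK1 (ILMN_2082244) measured 9.82, 9.86 and 9.18 in controls and 9.24, 9.23 and 9.38 after siP/CAF. Controls 1 and 2 were above all siP/CAF arrays and control 3 was below all of them, so the groups overlapped. The difference was -0.34 with an SE of 0.20, and -0.56 without control 3. The other 4 FOXK1 probes were not tested, with detection on at most 1 array of a group.

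Together, 15 of the 22 probes passed the filter (detection p under 0.05 on at least 3 arrays) and 7 did not, 3 of them detected on 0 arrays. Of all genes tested, 5.37% were past the adjusted threshold of 0.05, 3.09% lower and 2.28% higher. The 9 genes are not counted against this threshold, because they were chosen with their differences known. The groups did not overlap with siP/CAF below for 4 genes (15.1% of all genes), with siP/CAF above for 1 (12.6%), and overlapped for 4. The median difference of the 9 genes was -0.39, and over all 11806 genes it was -0.01. Differences were below 0 for 8 of the 9 genes and for 51.7% of all genes. The genes were chosen with these differences known, so nothing is read from the counts.

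**Figure D2:**
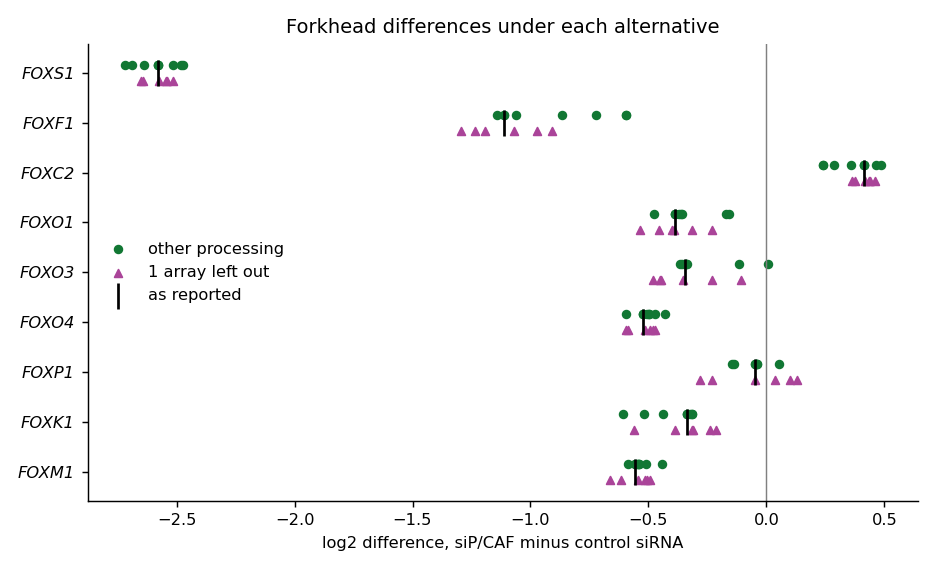
Log2 difference, siP/CAF minus control siRNA (horizontal axis), of each forkhead gene as reported (black marks), under other processing (green circles) and with 1 array left out (purple triangles). FOXS1 stays between -2.72 and -2.47, FOXF1 moves between -1.29 and -0.59, and FOXP1 and FOXO3 have values on both sides of 0.

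By the distance between profiles over the 6 arrays, each gene centred on its mean, the 5 genes nearest to FOXS1 were GRIN1 (0.409), SOHLH1 (0.472), OLFM1 (0.522), MYLK2 (0.789) and ALDH1A3 (0.808), in log2 units. GRIN1 encodes a glutamate receptor subunit, SOHLH1 a germ cell factor, OLFM1 a secreted neuronal protein, MYLK2 a myosin kinase of skeletal muscle and ALDH1A3 an enzyme of retinoic acid synthesis. OLFM1 was detected on 3 control arrays and 0 siP/CAF arrays and was at least 3.62-fold lower. GRIN1 and SOHLH1 were each detected on 1 siP/CAF array. The genes nearest to FOXO1 were ERCC6L2 (0.0712), POC1B (0.127), SCMH1 (0.135), SENP7 (0.136) and ANKRD11 (0.138). Each of them, like FOXO1, was highest on control 3.

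**Figure D3:**
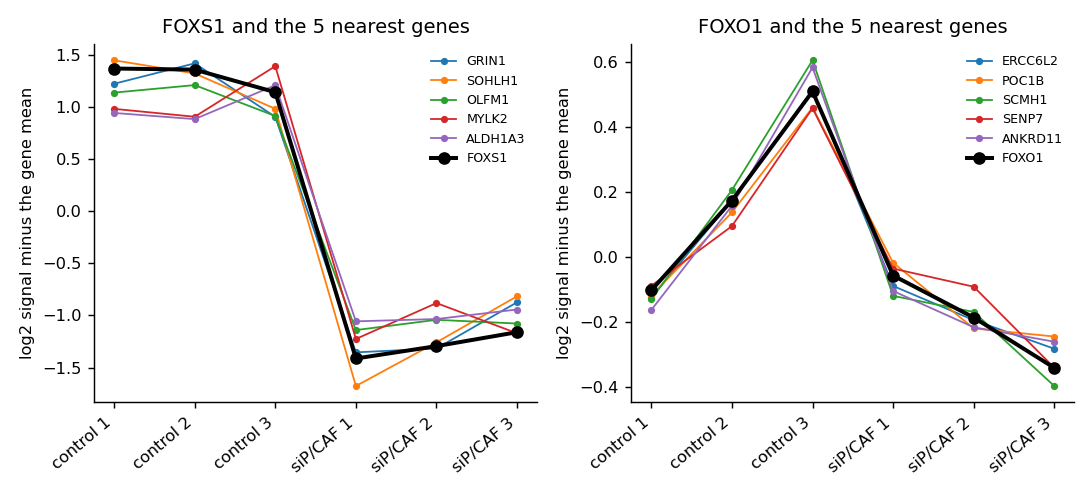
Centred log2 signal (vertical axis) on each array (horizontal axis) of FOXS1, left, and FOXO1, right (thick black lines), with the 5 genes of smallest distance to each (coloured lines); lines only join the values of a gene. The 3 control arrays lie above the 3 siP/CAF arrays for FOXS1 and its nearest genes, whereas FOXO1 and its nearest genes are highest on control 3.

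MYLK2 is also next to FOXS1 in the genome. In the order of the RefSeq gene table, it is the protein-coding gene just before FOXS1 on chromosome 20, and their spans do not overlap. MYLK2 measured 9.78, 9.70 and 10.19 in controls and 7.57, 7.92 and 7.63 after siP/CAF. Its groups did not overlap, and its difference was -2.19 with an SE of 0.18 (limma, Benjamini-Hochberg adjusted p = 2.60e-04). The gene just after, DUSP15, whose span overlaps that of FOXS1, differed by -0.04. TPX2 (-0.09), BCL2L1 (-0.12) and PDRG1 (0.12), also within 3 genes, were not past the threshold. Of the 31 other tested protein-coding genes within 3 of any of the 10, MYLK2 was the 1 that was lower, and 0 were higher. Over all genes tested, 3.09% were lower and 2.28% higher, so the count is near the share over all genes. The neighbours were looked up after these values were seen. FOXF1 and FOXC2 lie in 1 cluster on chromosome 16 with MTHFSD between them, and ran in opposite directions (-1.11 and 0.42). MTHFSD differed by -0.47 and was not past the threshold (limma, adjusted p = 0.151).

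The rest of the forkhead family was taken as every other gene named FOX with a letter and a number, 38 genes on 58 probes, of which 16 genes were tested. Of these 16, 2 fell, FOXD2 and FOXN3, and 0 rose, beside 3.09% and 2.28% of all genes tested. An unadjusted p under 0.05 was found for 6 of the 16 and for 20.6% of all genes tested. FOXD2 measured 9.14, 9.32 and 9.30 in controls and 8.61, 8.43 and 8.34 after siP/CAF (difference -0.79, SE 0.15, limma, Benjamini-Hochberg adjusted p = 0.0198). FOXN3, a repressor, measured 12.33, 12.35 and 12.77 in controls and 11.72, 11.89 and 11.60 after siP/CAF (difference -0.75, SE 0.17, adjusted p = 0.0406 in the same fit). For both genes each siP/CAF array was below each control array. A dimmer FOXN3 probe fell too (-0.89, limma adjusted p = 0.0437). It was detected on 3 control arrays and 2 siP/CAF arrays, and the control arrays alone sufficed for it to pass the filter. The third FOXN3 probe was detected on 0 arrays. The calls rest on few arrays: FOXD2 kept its call without control 3 alone (adjusted p up to 0.0816 without another array), and FOXN3 lost it without any array (up to 0.144).

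Next in order came FOXA1 (-0.64, limma adjusted p = 0.0595), FOXD1 (-0.39, 0.168) and FOXK2 (-0.47, 0.176), which were not past the threshold. Differences were below 0 for 11 of the 16 genes and above 0 for 5, and were below 0 for 51.7% of all genes. The median was -0.27, beside -0.01 over all genes. This median was -0.08 without control 3, -0.01 without a filter on dim probes, -0.05 with the replicate block and -0.12 with array weights. The FOXD4 and FOXD4L genes are near-identical copies whose probes cannot be assigned with certainty.

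**Figure D4:**
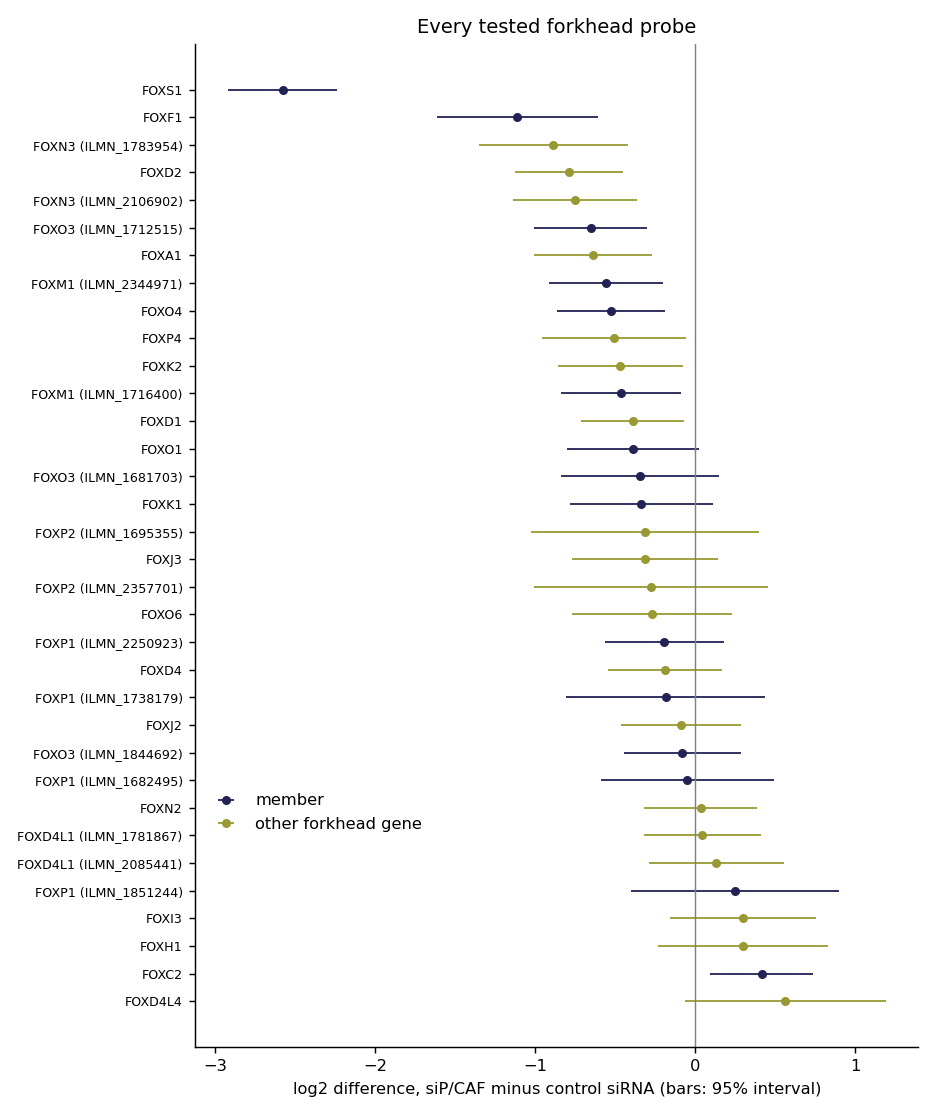
Log2 difference, siP/CAF minus control siRNA (horizontal axis), with its 95% interval, for each of the 15 tested probes of the 10 chosen genes (dark) and the 19 tested probes of other forkhead genes (olive). FOXS1 stands at -2.58 and FOXF1 at -1.11, and probes of FOXO3 and FOXP1 spread over several places in the order.

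FOXO proteins act through the genes they switch on. Of 34 listed FOXO targets, 24 were tested. Of these, 1 fell, TXNIP, which encodes a thioredoxin inhibitor, and 0 rose, and 5 had an unadjusted p under 0.05. Of all genes tested, 3.09% fell, 2.28% rose and 20.6% had an unadjusted p under 0.05. TXNIP measured 11.71, 11.95 and 12.41 in controls and 11.13, 11.30 and 11.09 after siP/CAF (difference -0.85, SE 0.19, limma, Benjamini-Hochberg adjusted p = 0.0378). Its groups did not overlap, but the call held only without control 3 among the omissions of 1 array (adjusted p up to 0.132). CITED2 (0.51, adjusted p = 0.0805), IRS2 (0.47, 0.117) and SOD2 (0.50, 0.222) were not past the threshold. The median of the list was 0.05.

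Dimmer probes of 2 listed targets went past the threshold where the brightest did not. For CCNG2, cyclin G2, 1 of the 2 dimmer probes differed by -1.18 (limma, adjusted p = 0.00876), the other by -0.51 (adjusted p = 0.177) and the brightest by -0.28. For ERBB3, a receptor of the EGFR family, the dimmer probe differed by -0.76 (adjusted p = 0.0192) and the brightest by -0.12. This dimmer probe was detected on 3 control arrays and 1 siP/CAF array. The control arrays alone sufficed for it to pass the filter, and most of its siP/CAF values were not above background.

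Of 30 listed regulators of FOXO proteins (AKT and SGK kinases, sirtuins, acetyltransferases and 14-3-3 proteins), 24 were tested and 0 were past the threshold in limma, with 6 at an unadjusted p under 0.05. The shares over all genes tested were 5.37% and 20.6%. AKT1, the kinase that sends FOXO proteins out of the nucleus, measured 12.36, 12.26 and 13.02 in controls and 11.80, 11.76 and 11.33 after siP/CAF. Its groups did not overlap, but control 3 was far above the other controls, and the difference of -0.92 (SE 0.23) had an adjusted p of 0.0514 by limma. Dimmer AKT1 probes differed by -0.76 and -0.06. SIRT2, a deacetylase, differed by -0.52 (adjusted p = 0.0711) and PIK3R1, a PI3-kinase subunit, by -0.44 (0.124). The kinases SGK1 (0.47, limma adjusted p = 0.170) and STK4 (0.33, 0.263) were higher and also not past the threshold. Dimmer SGK1 probes differed by 0.59 and 0.46. The acetyltransferase CREBBP differed by -0.39 on its brightest probe (adjusted p = 0.199) and by -0.91 on a dimmer one (adjusted p = 0.0259, limma). Of the 24 differences, 14 were below 0 and 10 above, beside 51.7% of all genes below 0. The median of the list was -0.04.

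All 26 listed targets of FOXM1 were tested, and 0 were past the threshold in limma, with 2 at an unadjusted p under 0.05. Over all genes tested, these shares were 5.37% and 20.6%. BIRC5, encoding survivin, differed by -0.48 (adjusted p = 0.230), NEK2, a mitotic kinase, by 0.34 (0.256) and CDC25C, a phosphatase that activates the mitotic kinase CDK1, by 0.26 (0.364). Dimmer probes of these genes differed by -0.11 (BIRC5), 0.30 (NEK2), and 0.08 and 0.33 (CDC25C). The median was -0.05.

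Foxf1 follows Hedgehog signals in the mouse, so the Hedgehog components were set beside FOXF1. Of 14 listed, 8 were tested, 4 fell and 0 rose, beside 3.09% and 2.28% of all genes tested. GLI1, a transcription factor and target of the pathway, measured 10.29, 10.45 and 10.84 in controls and 8.39, 8.50 and 8.43 after siP/CAF (difference -2.09, SE 0.17, limma, Benjamini-Hochberg adjusted p = 2.60e-04). HHIP, an inhibitor that binds the ligands, fell by 1.32 on the log2 scale (adjusted p = 0.00242). For both, the groups were apart, and the call held under all alternatives. The transcription factor GLI2 (-0.96, adjusted p = 0.0223) and the receptor PTCH1 (-0.82, 0.0328) also fell. The GLI2 call held in 10 of the 15 alternatives (limma, adjusted p up to 0.0962) and the PTCH1 call in 9 (up to 0.115). Both calls were lost without control 1 or any siP/CAF array. GAS1 (-0.38), SMO (-0.33) and CDON (-0.24), which encode a coreceptor, the signal transducer and another coreceptor, were not past the threshold. The median of the 8 was -0.60. The list was chosen with earlier results of these data known, and a link between these genes and FOXF1 was not tested.

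**Figure D5:**
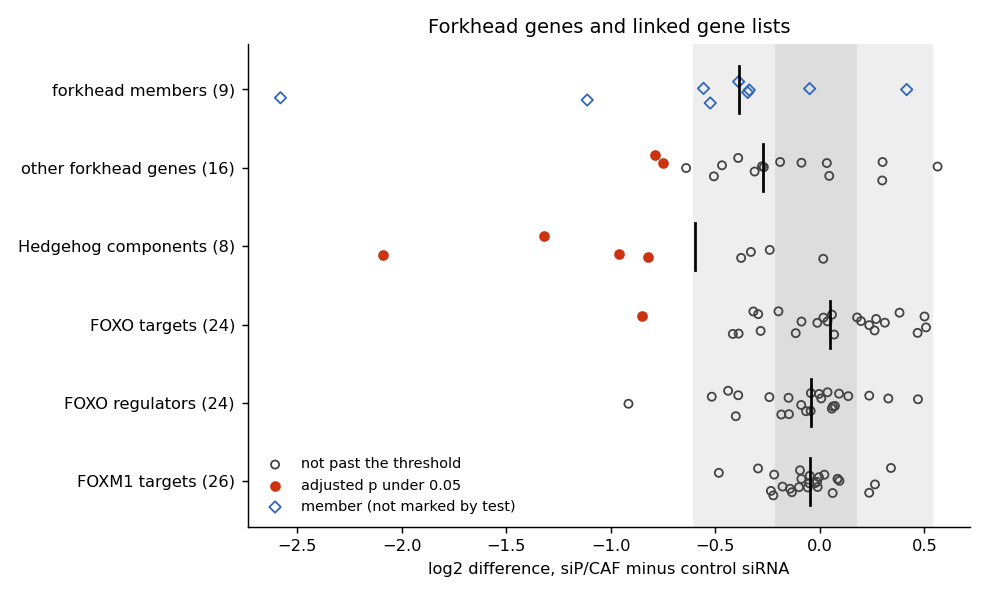
Log2 difference, siP/CAF minus control siRNA (horizontal axis), of each tested gene in each list, with the number tested in brackets; black bars are list medians, red points adjusted p under 0.05, blue diamonds the chosen forkhead genes, and the grey bands span percentiles 25 to 75 and 5 to 95 of all 11806 genes. The Hedgehog median is -0.60, and the FOXO target, FOXO regulator and FOXM1 target medians lie between -0.05 and 0.05.

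Markers of other cell types moved in part with the same contrast, in which 2.28% of all genes tested rose and 3.09% fell. Of 12 pericyte and fibroblast markers, 6 were tested and 2 rose, ACTA2, smooth muscle actin (difference 1.87, limma, Benjamini-Hochberg adjusted p = 0.00106) and PDGFRB (1.04, 0.0282), while PDGFRA, POSTN and RGS5 were detected on 0 arrays. CSPG4, a pericyte proteoglycan (0.93, limma adjusted p = 0.0591), and the collagen genes COL1A2 (adjusted p = 0.176) and COL3A1 (-0.36, 0.359) were not past the threshold. COL1A2 was detected on 3 control arrays and 0 siP/CAF arrays and was at least 1.18-fold lower. It passed the filter through the control arrays alone. Of the 6 differences, 3 were below 0 and 3 above. Over the list the summed signal was 1767 to 2802 in controls and 2533 to 2809 after siP/CAF. Of 8 endothelial markers 2 were tested, TIE1 rose (0.93, adjusted p = 0.0254) and PECAM1 fell (-0.59, 0.0433), and ERG, KDR and VWF were detected on 0 arrays, with sums of 592 to 643 and 469 to 533.

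Of 4 tested leukocyte markers and 2 tested epithelial markers, 0 were past the threshold in limma, also at an unadjusted p under 0.05. The leukocyte genes of smallest p were CD14 (0.34, limma adjusted p = 0.332), ITGAM (0.37, 0.386) and CD68 (0.20, 0.593), and the epithelial genes CLDN4 (0.12, 0.862) and KRT8 (0.04, 0.962). CD3E and PTPRC, and CDH1, EPCAM, ESRP1, KRT18, KRT19 and KRT5, were detected on 0 arrays. The leukocyte sums were 841 to 1088 and 1035 to 1137, and the epithelial sums 63.7 to 64.8 and 65.0 to 74.9.

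Of the 8 tested rhabdomyosarcoma markers 1 fell, MYOG, the muscle differentiation factor (-1.67, limma, Benjamini-Hochberg adjusted p = 6.88e-04). CHRNA1 (-0.73, 0.0601) and CHRND (-0.52, 0.101), subunits of the muscle acetylcholine receptor, and MYOD1 (-0.50, 0.102) were not past the threshold. Dimmer CHRNA1 probes differed by -0.59 and -0.21. All 8 differences were below 0, with a median of -0.51, 6 had an unadjusted p under 0.05, and for 6 the groups did not overlap. Of all genes tested, 3.09% fell, 51.7% were below 0 and 20.6% had an unadjusted p under 0.05. For 15.1% of them the groups did not overlap with siP/CAF below. The summed signal was 30873 to 42026 in controls and 21846 to 26780 after siP/CAF. The part of these cell markers in the differences of the forkhead genes was not tested.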

How the data were processed

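Each of the 6 samples was read on 1 Illumina array. The deposited table holds for each probe and array a bead signal, an intensity on a linear scale without between-array normalization, per the file headers. Beside each intensity the deposited table gives a score that its header calls a p value. It approaches 1 for bright probes, so from the values it was taken to be 1 minus the detection p. Values on a log2 scale in the deposited series matrix are centred on each probe's median (r of 0.933 to 0.970 with the signals, slopes of 0.850 to 1.07, column medians of 0); scale and centring were found from the values, and the sources used here do not give its normalization.

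Normexp correction with the detection p, an offset of 16, quantile normalization and log2 were applied through neqc (limma 3.58.1, R 4.3.3). Probes with detection p under 0.05 on at least 3 of 6 arrays were tested (21232 probes) with limma (lmFit, eBayes), all 6 arrays and no block, and Benjamini-Hochberg adjustment over all of them, at a threshold of 0.05. For each gene the tested probe with the highest mean was used. Where no array of a group detected a probe, its fold is a bound: in that group each array's value was raised, where lower, to the lowest detected signal of that array before averaging. Differences run from control siRNA to siP/CAF. The third siP/CAF sample carries no number in its title and is called siP/CAF 3. Symbols came from the platform annotation: 30113 probes had 1, 8 had several and 17202 had none here.

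The 10 genes, the gene lists and the tests were chosen with earlier results of these data known. Besides those genes, every listed gene past the threshold up to the 6 of smallest p and the next 3 not past it are named. The 5 nearest profiles to FOXS1 and FOXO1 are named too. Dimmer probes, SGK1, STK4, CREBBP, neighbours in the genome and DES and other marker genes were named after their values were seen. No 2 arrays held identical values. The number of arrays limits the precision. The procedure was tested on simulated data. Alternatives changed the background correction, offset, scaling, source table, filter, array weights, choice of probe and replicate block, and left out each array in turn.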

Additional observations from a re-analysis of the deposited data

How the results depend on the processing

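Alternatives were run for KAT2B, the 9 chosen forkhead genes with a tested probe, FOXD2, FOXN3, GLI1, GLI2, HHIP, PTCH1 and TXNIP. Other named genes and dimmer probes were not rerun one by one, though the counts below cover every tested gene of a list. Of the genes rerun, FOXP1 and FOXO3 alone changed direction under some alternatives. The KAT2B difference kept its call in all alternatives, between -2.91 and -2.26 (limma, adjusted p up to 0.00672). The number of genes changed, 634 as reported (269 higher and 365 lower), was 1748 with array weights, 442 with the replicate block and 209 to 703 without 1 array. The median difference of the chosen forkhead genes, -0.39 as reported, was -0.48 to -0.36 under other processing and -0.51 to -0.39 without 1 array. Other forkhead genes changed, 2 as reported, numbered 3 with an offset of 50, median scaling, detection on all 6 arrays or array weights. In each of these settings FOXA1 joined FOXD2 and FOXN3. The count was 1 without a filter and 0 to 1 without 1 array. FOXO targets, 1 as reported, numbered 2 without background correction, 2 with an offset of 50, 2 in the series matrix, 0 without a filter, 5 with array weights and 0 to 1 without 1 array. FOXO regulators, 0 as reported, numbered 2 without background correction, 2 with an offset of 50, 2 in the series matrix, 1 with median scaling, 1 with detection on all 6 arrays, 1 without a filter, 1 with the mean over probes, 5 with array weights and 0 to 1 without 1 array. FOXM1 targets, 0 as reported, numbered 1 with array weights and 0 without any 1 array. Hedgehog components, 4 as reported, numbered 3 without a filter and 2 to 4 without 1 array. FOXF1 was not tested under detection on all 6 arrays. Filters change how many genes share the adjustment; for the other settings the cause was not tested.

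The titles give numbers 1 and 2 in both groups. Deviations of same-numbered samples correlated at -0.15 and -0.41, and those of samples numbered 1 and 2 across groups at -0.16 and -0.22. These few values show no pairing by number, but they cannot exclude it. With the replicate block on those 4 arrays, 2 Hedgehog components were past the threshold. The same fit had 0 other forkhead genes, 0 FOXO targets, 0 FOXO regulators and 0 FOXM1 targets past it. FOXO3 was then at 0.01 and FOXO1 at -0.16. The medians of 3 lists lay near 0 and changed sign under some settings: FOXO targets were at -0.06 with the block, FOXO regulators at 0.05 and FOXM1 targets at 0.08.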
